A study of Mus musculus with 21 samples.

Results

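The insulin-like growth factor (IGF) system genes were described across 7 populations of mouse epidermal cells. They are the 10 genes whose symbol in all 3 deposited tables was Igf1, Igf2, Igf1r, Igf2r, Igfbp2, Igfbp3, Igfbp4, Igfbp5, Igfbp6 or Igfbp7, out of 43763 gene symbols in the tables. The set was chosen by the FPKM values and calls of these same tables, so its calls are given as a description. IGFs are secreted growth factors that signal through the tyrosine kinase receptor IGF1R, while IGF2R carries IGF2 to lysosomes and does not signal as a kinase. Most IGF in tissue fluid is held by secreted binding proteins, which keep it from the receptor or release it when proteases cut them. In skin, IGF1 is made mainly by dermal fibroblasts and the dermal papilla, and keratinocytes of the epidermis and follicle carry the receptor.

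RNA sequencing covered 21 libraries in 7 groups of 3. The 3-population table holds HFSC, CD34a6 and bulk. Its 9 libraries are labelled as sorted hair follicle stem cells (HFSCs), cultured HFSCs titled 3C-HFSCs and total epidermal cells, all wild type. The other 12 libraries are also from 3C cultures, here of total epidermal cells grown for 10 to 14 days. They are the CD34+ alpha-6 integrin+ fraction, the CD34neg alpha-6 integrin+ fraction, cultures given dorsomorphin for 48 h and cultures given cyclopamine for 48 h. Dorsomorphin blocks type I BMP receptors as well as AMP-activated kinase, and cyclopamine blocks Smoothened in the Hedgehog pathway. Cultures with no inhibitor do not enter the drug comparison, which sets the drugs directly against each other. Strain, age, sex of the animals and drug dose were not given in the sources used here, nor was whether the 3 libraries per group were separate animals or separate cultures, so p-values may measure technical spread only.

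The study asked which cells grow in 3C cultures and which early changes accompany the drug said to deplete HFSCs and the drug said to enrich them. Each value is the authors' FPKM (fragments per kilobase of transcript, scaled to the library's mapped fragments) for a population, estimated over its 3 libraries. No value per library was analysed here, so no SD is given, and read depth is unknown. Levels were compared within a table only. Bulk was read as total epidermal cells, but which of HFSC and CD34a6 holds the freshly sorted and which the cultured cells is not settled by the labels. HFSC against CD34a6 thus sets freshly sorted and 3C-cultured cells against each other, in an order that is not known. Keratinocyte markers (Krt5, Krt14, Epcam, Cdh1 and Trp63) were all at 20.7 FPKM or more in every population. The bulge marker Cd34 was at 8.70 FPKM in HFSC, 327 FPKM in CD34a6 and 10.6 FPKM in bulk, and Krt15 at 37.9 FPKM in HFSC, 9923 FPKM in CD34a6 and 4791 FPKM in bulk, and Lhx2, Sox9 and Lgr5 were likewise highest in CD34a6. Itga6, the gene of the sort marker alpha-6 integrin, ran the other way, at 306 FPKM in HFSC, 155 FPKM in CD34a6 and 72.4 FPKM in bulk, so 5 of 6 bulge markers were highest in the column named CD34a6.

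The binding protein genes differed most among the 3 populations, and the promoters of the genes at the extremes are shown for that reason. Igfbp5 and Igfbp4 were highest in CD34a6, and Igfbp2 was highest in HFSC. The sequences are RefSeq promoters on build GRCm38.p6, from 250 bases before to 50 bases after the annotated start, written 5′ to 3′ on the gene's own strand. They lie at chr1:72874816-72875115 (minus strand) for Igfbp5, chr11:99040994-99041293 (plus strand) for Igfbp4 and chr1:72824230-72824529 (plus strand) for the first of 2 listed Igfbp2 starts. Capitals mark TGGC, any 5 bases and GCCA in Igfbp5, TATAAA in Igfbp4 and GGGCGG in Igfbp2.
Igfbp5: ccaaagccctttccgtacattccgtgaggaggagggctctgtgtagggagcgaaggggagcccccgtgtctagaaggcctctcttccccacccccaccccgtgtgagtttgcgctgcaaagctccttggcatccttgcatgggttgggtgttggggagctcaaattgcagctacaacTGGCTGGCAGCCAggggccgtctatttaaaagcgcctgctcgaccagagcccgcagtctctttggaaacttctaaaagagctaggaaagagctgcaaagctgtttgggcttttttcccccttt
Igfbp4: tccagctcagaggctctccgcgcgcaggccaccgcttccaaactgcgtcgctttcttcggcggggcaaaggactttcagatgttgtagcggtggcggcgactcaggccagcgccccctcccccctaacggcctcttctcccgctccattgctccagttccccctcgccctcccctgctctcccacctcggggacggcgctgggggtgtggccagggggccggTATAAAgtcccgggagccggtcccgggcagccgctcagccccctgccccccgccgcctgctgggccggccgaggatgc
Igfbp2: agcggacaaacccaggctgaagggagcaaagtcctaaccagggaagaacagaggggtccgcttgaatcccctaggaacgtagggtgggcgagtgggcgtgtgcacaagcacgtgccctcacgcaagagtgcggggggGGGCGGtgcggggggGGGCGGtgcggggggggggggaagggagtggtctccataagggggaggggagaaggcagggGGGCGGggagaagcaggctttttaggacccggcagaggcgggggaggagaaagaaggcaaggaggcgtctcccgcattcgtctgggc
All 10 members had a promoter in the RefSeq table, and 6 motifs were searched on both strands. TGGC followed after 5 bases by GCCA, the palindromic form of the nuclear factor I motif, was in 0.807% of the 32851 promoters of this length, and among the members it was in Igfbp5 alone. TATAAA, the TATA box, was in 13.6% of all promoters and among the members in Igfbp4 and Igfbp6. GGGCGG, a GC box, was in 35.7% of all promoters, and it occurred in promoters of Igf2, Igf1r, Igf2r, Igfbp2 and Igfbp7. TAATTA, a homeodomain motif (5.29% of all promoters), occurred in Igf2, TGANTCA, the AP-1 motif (7.81%), in Igf1 and the second Igfbp2 promoter, and CACCTG, an E-box (20.2%), in Igf2r, Igfbp3 and the second Igfbp2 promoter. The shown windows had a GC content of 56.3% for Igfbp5, 71.3% for Igfbp4 and 67.0% for Igfbp2, against a median of 52.7% over all promoters. A match says only that the letters are present in the window.

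Neither ligand gene reached 1 FPKM in any of the 7 populations. Igf1 lies at chr10:87858265-87937042 on the plus strand and Igf2 at chr7:142650766-142666816 on the minus strand (GRCm38). Igf1, the ligand that circulates from liver and is made by dermal cells, was at 0.152 FPKM in HFSC, 0.0820 FPKM in CD34a6 and 0.00516 FPKM in bulk. In 3C cultures Igf1 was at 0.166 FPKM in the CD34+ and 0.00716 FPKM in the CD34neg fraction, and at 0.0704 FPKM with dorsomorphin and 0.106 FPKM with cyclopamine. The authors' deposited tables did not test Igf1 in any comparison. Igf2, the imprinted ligand of fetal growth, was at 0.368 FPKM in HFSC, 0.456 FPKM in CD34a6 and 0.388 FPKM in bulk, so its levels lay close together in that table. Igf2 was at 0.483 FPKM in CD34+ and 0.125 FPKM in CD34neg cells, and at 0.299 FPKM with dorsomorphin and 0.874 FPKM with cyclopamine. It was tested only in CD34a6 against bulk (adjusted p = 0.756) and in HFSC against CD34a6 (adjusted p = 0.636) in the authors' deposited table, and was called in neither.

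**Figure D1:**
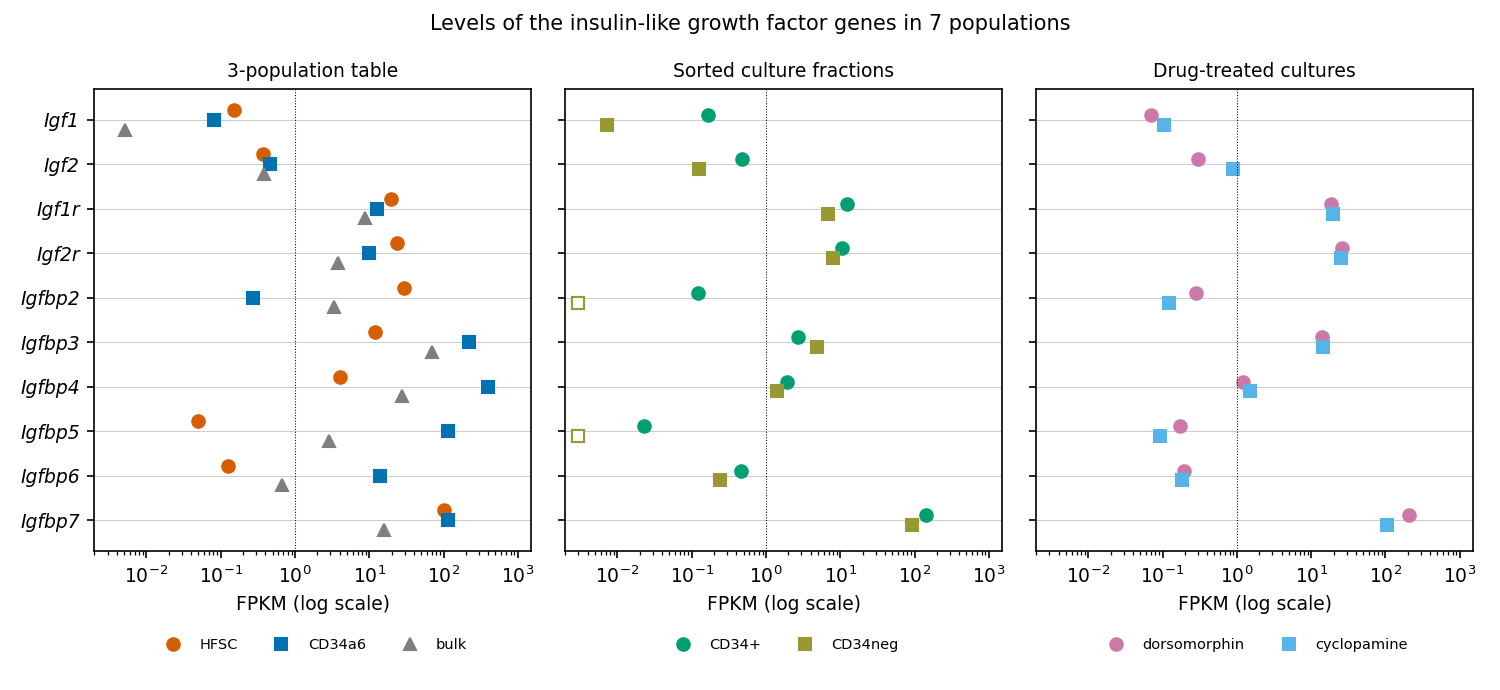
Level of each of the 10 genes in FPKM (log axis) for the populations of each table, 1 point per population as the authors deposited it, with no error because no value per library was used. Open squares at the left edge are values listed at 0, and the dotted line marks 1 FPKM. Igf1 and Igf2 lie left of the line in every panel, and Igfbp7 is at 16.0 FPKM or more everywhere.

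Both receptors were present in all populations and were highest in HFSC within the 3-population table. Igf1r, the signalling receptor, was at 19.7 FPKM in HFSC, 12.8 FPKM in CD34a6 and 8.84 FPKM in bulk. Igf2r, the clearance receptor, was at 23.6 FPKM in HFSC, 9.96 FPKM in CD34a6 and 3.82 FPKM in bulk. The order of the populations was thus the same for both genes, with a wider range for Igf2r. Igf1r lies at chr7:67952827-68233668 on the plus strand and Igf2r at chr17:12682406-12769664 on the minus strand (GRCm38, GENCODE vM21). Igf2r was 6.17-fold higher in HFSC than in bulk, 2.37-fold higher in HFSC than in CD34a6 and 2.61-fold higher in CD34a6 than in bulk (adjusted p = 0.000212 each in the authors' deposited table). Igf1r was 2.23-fold higher in HFSC than in bulk (adjusted p = 0.00234) and 1.54-fold higher in HFSC than in CD34a6 (adjusted p = 0.000586), while CD34a6 and bulk did not differ past the threshold (adjusted p = 0.125), all in the authors' deposited table. The ratio of Igf2r to Igf1r FPKM was 1.20 in HFSC, 0.780 in CD34a6 and 0.432 in bulk. Both genes are long (16791 nt of exons for Igf1r and 9308 nt for Igf2r), and folds against bulk followed exonic length across all loci. The part of length in the receptor folds was not tested. The median log2 fold (FPKM + 1) of CD34a6 against bulk was -0.62 in the shortest and 0.51 in the longest of 10 equal classes of loci by exonic length. With the median of its length class subtracted, the uncalled log2 fold of Igf1r in CD34a6 against bulk was -0.03, against 0.48 without the subtraction. The called folds kept their direction, at 0.79 for Igf2r in CD34a6 against bulk, 2.06 for Igf2r in HFSC against bulk and 0.74 for Igf1r in HFSC against bulk.

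No receptor gene was called among the cultures. In the CD34+ fraction Igf1r was at 12.3 FPKM, against 6.78 FPKM in the CD34neg fraction, and Igf2r was at 10.7 FPKM in CD34+ and 8.07 FPKM in CD34neg cells. Neither passed the threshold in the authors' deposited table (adjusted p = 0.0553 for Igf1r and 0.304 for Igf2r). With dorsomorphin Igf1r was at 18.6 FPKM and Igf2r at 25.7 FPKM, against 19.9 FPKM and 25.6 FPKM with cyclopamine. These were not called either (adjusted p = 0.880 for Igf1r and 0.991 for Igf2r in the authors' deposited table).

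CD34a6 cells had far more Igfbp4, Igfbp5, Igfbp6 and Igfbp3 transcript than bulk or HFSC. Igfbp4, whose product binds IGFs and is cut by the protease PAPP-A, was at 4.0001 FPKM in HFSC, 392 FPKM in CD34a6 and 27.8 FPKM in bulk. Igfbp5, also a PAPP-A family substrate and bound by extracellular matrix, was at 0.05003 FPKM in HFSC, 115 FPKM in CD34a6 and 2.86 FPKM in bulk. In both genes CD34a6 was highest, bulk came next and HFSC was lowest. Igfbp6, whose product prefers IGF2, was at 0.125 FPKM in HFSC, 14.1 FPKM in CD34a6 and 0.665 FPKM in bulk. Igfbp3, which encodes the main carrier of IGF in blood, was at 11.8 FPKM in HFSC, 217 FPKM in CD34a6 and 70.6 FPKM in bulk. These genes shared the order of Igfbp4 and Igfbp5. Igfbp6 lies at chr15:102144362-102149511 on the plus strand (GRCm38). Within CD34a6, Igfbp4 lay above 99.5% and Igfbp3 above 99.0% of the 20056 loci with a value above 0.

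Against bulk, CD34a6 had 40.2 times as much Igfbp5, 21.2 times as much Igfbp6, 14.1 times as much Igfbp4 and 3.08 times as much Igfbp3 (adjusted p = 0.000212 each in the authors' deposited table). Igfbp5 had the 6th largest positive log2 fold (FPKM + 1) of 3173 loci called higher in CD34a6 than in bulk, and Igfbp4 the 50th. HFSC was below CD34a6 by 2302-fold for Igfbp5, 113-fold for Igfbp6, 98.0-fold for Igfbp4 and 18.4-fold for Igfbp3. The adjusted p was 0.000212 for Igfbp3, Igfbp4 and Igfbp5 and 0.00757 for Igfbp6 in the authors' deposited table. HFSC was also below bulk, by 57.2-fold for Igfbp5, 6.94-fold for Igfbp4, 5.97-fold for Igfbp3 and 5.31-fold for Igfbp6. In the authors' deposited table the adjusted p of these was 0.000212, except 0.0416 for Igfbp6. The HFSC ratios of Igfbp5 and Igfbp6 rest on HFSC values near 0, so their size is uncertain. With FPKM + 1 the log2 folds of HFSC against CD34a6 were -6.79 for Igfbp5 and -3.75 for Igfbp6. Against bulk the log2 fold of Igfbp5 in HFSC was -1.88. Igfbp6 is short, at 1112 nt of exons, and its log2 fold (FPKM + 1) of HFSC against bulk was -0.57, against -0.01 with the length trend subtracted.

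Igfbp2 ran the other way. Its product binds both IGFs and carries an integrin-binding motif. Igfbp2 was at 29.1 FPKM in HFSC, 0.273 FPKM in CD34a6 and 3.40 FPKM in bulk, so the population highest for Igfbp5 was the lowest for Igfbp2. It was 8.56-fold higher in HFSC than in bulk, 107-fold higher in HFSC than in CD34a6 and 12.5-fold lower in CD34a6 than in bulk (adjusted p = 0.000212 each in the authors' deposited table). Igfbp2 and Igfbp5 are neighbours on chromosome 1. Igfbp2 lies at chr1:72824503-72852474 on the plus strand and Igfbp5 at chr1:72857932-72874884 on the minus strand (GRCm38), so their 3′ ends face each other 5457 bases apart with 0 annotated genes between. Igfbp3 (chr11:7206086-7213923, minus strand) has Igfbp1 as its neighbour in the same tail-to-tail arrangement, 3539 bases away, and Igfbp4 lies elsewhere on chromosome 11 at chr11:99041244-99054392.

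Igfbp7, a secreted relative that binds insulin and IGFs weakly, was high in HFSC and CD34a6 alike. It was at 102 FPKM in HFSC, 114 FPKM in CD34a6 and 16.0 FPKM in bulk. HFSC was 6.42-fold above bulk (adjusted p = 0.0209 in the authors' deposited table) and CD34a6 7.16-fold (adjusted p = 0.0157 in the authors' deposited table). No difference was called between HFSC and CD34a6 (adjusted p = 0.548 in the authors' deposited table). Igfbp7 lies at chr5:77349240-77408041 on the minus strand (GRCm38). Its deposited locus also spans the RNA polymerase II gene Polr2b, which has its own line at 25.4 FPKM in HFSC, 22.4 FPKM in CD34a6 and 25.0 FPKM in bulk and was called in no comparison.

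Of the 9 members tested for CD34a6 against bulk, 6 were higher and 1 was lower, where 22.0% of 14441 tested loci were higher and 24.3% lower. For HFSC against bulk 4 were higher and 4 lower of 8 tested, where 19% of 14035 loci were higher and 24.7% lower. For HFSC against CD34a6 3 were higher and 4 lower of 9 tested, where 25.2% of 13962 loci were higher and 29.0% lower. The calls are those of the authors' deposited table at an adjusted p under 0.05, and the same contrasts chose the members, so these counts carry no evidence. The median log2 fold (FPKM + 1) over all 10 members was 1.397 for CD34a6 against bulk, 0.088 for HFSC against bulk and -0.12 for HFSC against CD34a6. Over the tested members alone it was 1.609, 0.254 and -0.156 in the same order, beside 0.0029, -0.11 and -0.07 over all tested loci. The 3 comparisons share their populations and are not independent of each other.

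**Figure D2:**
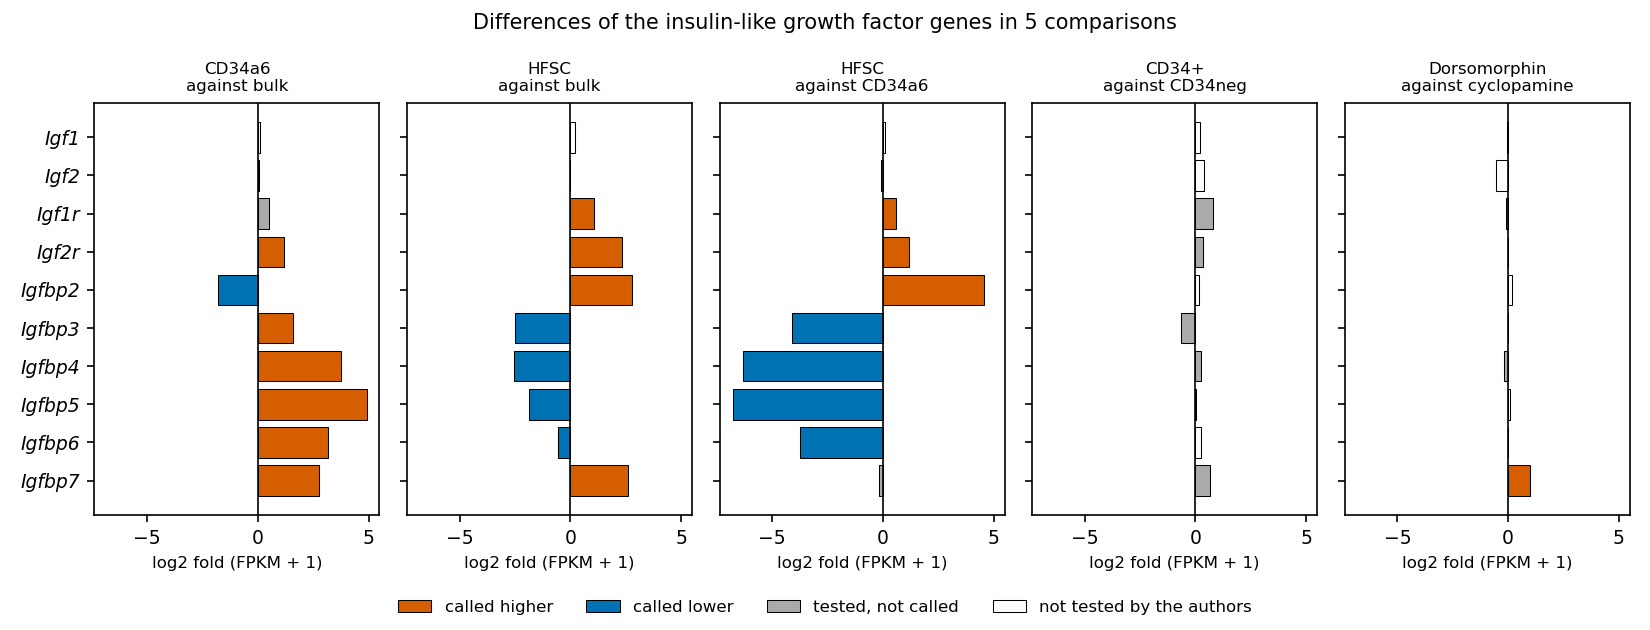
Log2 fold (FPKM + 1) of each member in the 5 deposited comparisons, as bars from 0. Orange bars were called higher and blue bars lower at the authors' adjusted p under 0.05, grey bars were tested and not called, and white bars were not tested. Igfbp4, Igfbp5 and Igfbp6 lie right of 0 for CD34a6 against bulk and left of 0 for HFSC against CD34a6, and Igfbp2 lies on the opposite side in both. For the sorted fractions and the drugs Igfbp7 has the only coloured bar.

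Both the amount and the composition of the binding protein transcripts differed among the 3 populations. Summed over the 6 genes, binding protein transcript came to 147.5 FPKM in HFSC, 853 FPKM in CD34a6 and 121 FPKM in bulk. In HFSC Igfbp7 made up 69.4% of the sum, Igfbp2 19.7% and Igfbp3 8.005%. In CD34a6 Igfbp4 made up 46.0%, Igfbp3 25.5%, Igfbp5 13.5% and Igfbp7 13.4%. Bulk was mostly Igfbp3, at 58.2%, with 22.9% Igfbp4 and 13.2% Igfbp7. A different gene therefore led in each population. The ratio of summed binding protein to summed receptor FPKM was 3.41 in HFSC, 37.5 in CD34a6 and 9.58 in bulk. These sums carry no error and no test.

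**Figure D3:**
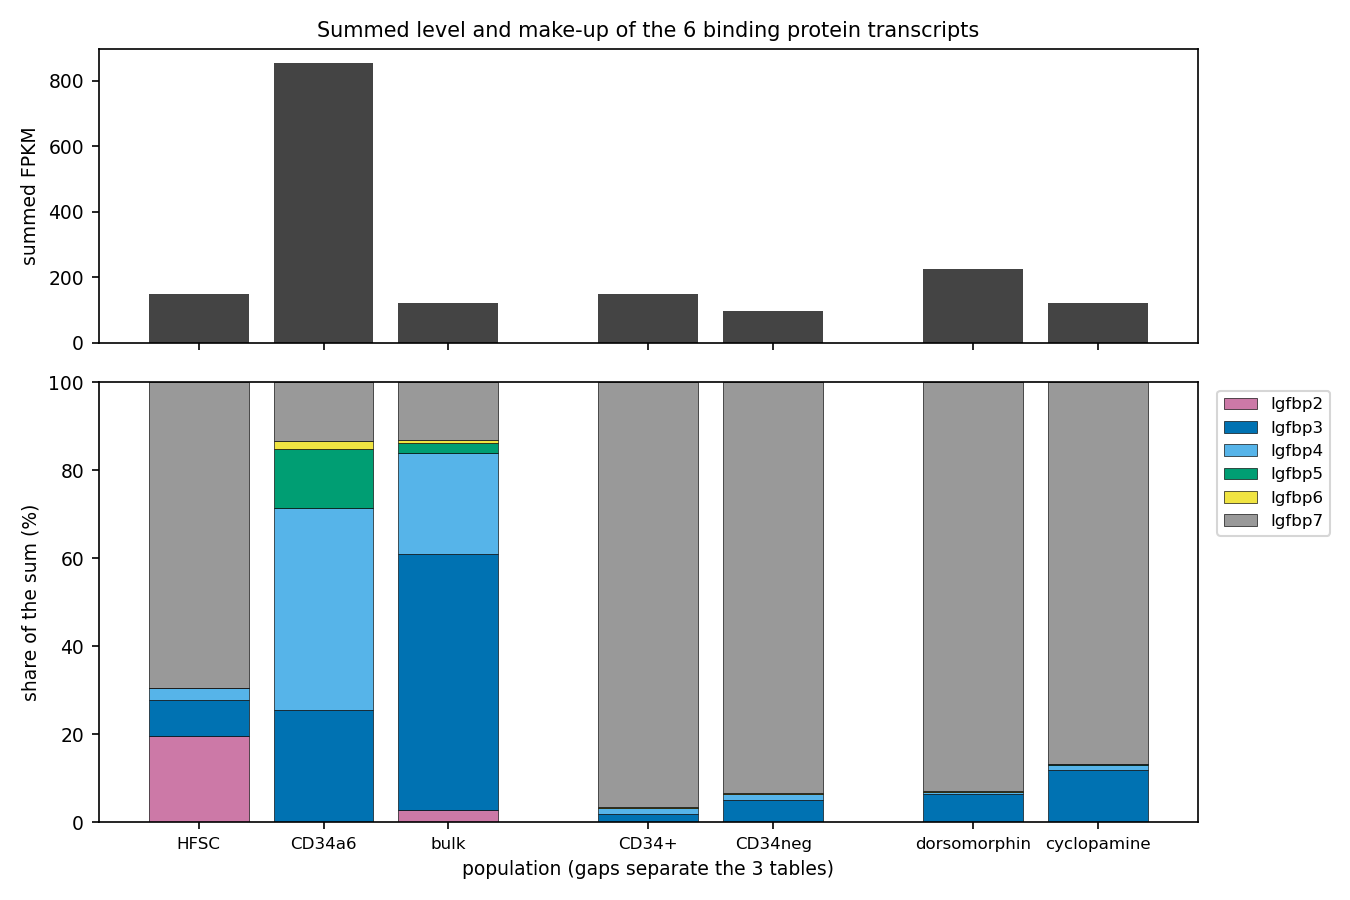
Summed FPKM of the 6 binding protein genes in each population (bars from 0) and the percentage of that sum in each gene. Igfbp4 fills 46.0% of the CD34a6 bar and Igfbp7 between 86.7% and 96.5% of the bars of the sorted fractions and drug-treated cultures.

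Markers of other cell types moved with some of these values. Of 9 fibroblast markers, Col1a1 was at 22.4 FPKM, Col1a2 at 8.08 FPKM, Vim at 5.53 FPKM and Dcn at 2.58 FPKM in CD34a6, while Col3a1, Lum and Twist2 were listed at 0 and Pdgfra was at 0.0410 FPKM. Their sum was 1.19 FPKM in HFSC, 38.6 FPKM in CD34a6 and 61.0 FPKM in bulk, of which Vim was 56.6 FPKM in bulk. Within this sum Vim was lower in CD34a6 than in bulk while Col1a1 and Col1a2 were higher (adjusted p = 0.000212 each in the authors' deposited table). Col1a1 was at 0.447 FPKM in HFSC and 1.21 FPKM in bulk, and Col1a2 at 0.0223 FPKM in HFSC and 0.825 FPKM in bulk, so both collagen genes, like Igfbp4, Igfbp5 and Igfbp6, were listed highest in CD34a6. Of 4 mural cell markers, Cspg4 was at 5.72 FPKM in HFSC, 67.6 FPKM in CD34a6 and 4.73 FPKM in bulk, and the other 3 were between 0 and 0.0064 FPKM in CD34a6. Of 6 dermal papilla markers, Hhip was at 0.0052 FPKM in HFSC, 10.7 FPKM in CD34a6 and 0.447 FPKM in bulk, and the other 5 were at 0.431 FPKM or less in CD34a6. Cspg4 and Hhip were thus also higher in CD34a6 than in bulk (adjusted p = 0.000212 each in the authors' deposited table). The 6 endothelial markers summed to 1.05 FPKM in HFSC, 1.64 FPKM in CD34a6 and 0.236 FPKM in bulk, and the 5 melanocyte markers to 0.590 FPKM in HFSC, 8.56 FPKM in CD34a6 and 6.68 FPKM in bulk. Most of the endothelial sum was Tek in CD34a6 (1.17 FPKM) and Pecam1 in HFSC (0.955 FPKM). Most of the melanocyte sum in CD34a6 was Dct, at 7.29 FPKM against 2.63 FPKM in bulk. Tyrp1 was lower, at 0.348 FPKM in CD34a6 and 1.18 FPKM in bulk (adjusted p = 0.00891 in the authors' deposited table). Pmel, at 0.643 FPKM in CD34a6 and 2.57 FPKM in bulk, was not called (adjusted p = 0.465 in the authors' deposited table). Sox10, at 0.215 FPKM in CD34a6 and 0.0318 FPKM in bulk, and Mlana, at 0.0588 FPKM and 0.265 FPKM, were not tested. Several defining markers of these lists were thus near 0 in CD34a6, and others were not. The 7 immune markers summed to 1.16 FPKM in HFSC, 4.55 FPKM in CD34a6 and 212 FPKM in bulk, and the 4 suprabasal markers to 139.9 FPKM in HFSC, 1110.4 FPKM in CD34a6 and 34041 FPKM in bulk. Of the suprabasal sum in CD34a6, Krt10 was 874 FPKM. Krt1, Krt10 and Lor were lower in HFSC than in CD34a6. Ivl was higher, at 30.1 FPKM in HFSC and 6.29 FPKM in CD34a6 (adjusted p = 0.000212 in the authors' deposited table). The part of these markers in the differences among the 3 populations was not tested. In populations sequenced in bulk, fewer cells of a type and less RNA per cell cannot be told apart.

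Within 3C cultures, no member passed the threshold between the CD34+ and the CD34neg fraction. Of 5 members tested by the authors 0 were called in their deposited table, where 2.08% of 11370 loci were called higher and 4.71% lower, and 2 had an unadjusted p under 0.05, as did 22.6% of all tested loci. These were Igf1r (p = 0.0041) and Igfbp3 (p = 0.0063, adjusted p = 0.0706), by the authors' deposited table. Igfbp3 was at 2.71 FPKM in CD34+ and 4.89 FPKM in CD34neg cells. Igfbp4 was at 1.91 FPKM in CD34+ and 1.43 FPKM in CD34neg cells and was not called (adjusted p = 0.726 in the authors' deposited table). The sorted fractions thus lay within 2-fold of each other for both genes. Igfbp7 was at 144 FPKM in CD34+ and 91.3 FPKM in CD34neg cells and was not called (adjusted p = 0.268 in the authors' deposited table). Igfbp2 was at 0.121 FPKM and Igfbp5 at 0.0225 FPKM in CD34+ cells, and both were listed at 0 in CD34neg cells. Igfbp6 was at 0.457 FPKM in CD34+ and 0.243 FPKM in CD34neg cells, and like Igfbp2 and Igfbp5 it was not tested. The binding protein sum was 149 FPKM in CD34+ and 97.9 FPKM in CD34neg cells, and Igfbp7 made up 96.5% of it in CD34+ and 93.3% in CD34neg cells. Cd34 itself was at 38.7 FPKM in the CD34+ and 2.26 FPKM in the CD34neg fraction.

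Dorsomorphin cultures had more Igfbp7 than cyclopamine cultures, and no other member was called. Igfbp7 was at 210.0 FPKM with dorsomorphin and 105 FPKM with cyclopamine, a ratio of 1.99 (adjusted p = 0.00479 in the authors' deposited table). It had the 20th largest positive log2 fold (FPKM + 1) of the 145 loci called higher. Of 5 members tested 1 was called, where 1.26% of 11505 loci were called higher and 1.31% lower. Igfbp3 was at 14.1 FPKM with dorsomorphin and 14.2 FPKM with cyclopamine (adjusted p = 0.984 in the authors' deposited table). Igfbp4 was at 1.22 FPKM with dorsomorphin and 1.52 FPKM with cyclopamine (adjusted p = 0.886 in the authors' deposited table). Both lay closer together than Igfbp7. Igfbp2 was at 0.283 FPKM, Igfbp5 at 0.170 FPKM and Igfbp6 at 0.197 FPKM with dorsomorphin, against 0.121 FPKM, 0.0927 FPKM and 0.182 FPKM with cyclopamine, and none of these was tested. Polr2b, at the same locus as Igfbp7, was at 33.5 FPKM with dorsomorphin and 31.7 FPKM with cyclopamine and was not called. The fibroblast markers summed to 29.0 FPKM with dorsomorphin and 17.3 FPKM with cyclopamine. Of the 9 markers Vim was at 21.9 FPKM with dorsomorphin and 14.0 FPKM with cyclopamine, and Col3a1 at 2.30 FPKM with dorsomorphin and 0.111 FPKM with cyclopamine. Pdgfra was at 1.02 FPKM with dorsomorphin and 1.08 FPKM with cyclopamine, and Lum was listed at 0 in both. Of the 9 fibroblast markers 2 were tested and 0 called. Of the other lists, 1 bulge and 1 mural marker were called lower with dorsomorphin, and 1 suprabasal marker was called higher and 1 lower. No keratinocyte, endothelial, immune, melanocyte or dermal papilla marker was called. The part of any marker in the Igfbp7 difference was not tested.

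Proteases and inhibitors that act on the binding proteins also differed among the 3 populations. Pappa, which encodes the secreted protease PAPP-A that cuts IGFBP4 and IGFBP5, was at 0.0653 FPKM in HFSC, 13.3 FPKM in CD34a6 and 0.364 FPKM in bulk. Stc2, which encodes stanniocalcin-2, an inhibitor of PAPP-A, was at 25.5 FPKM in HFSC, 0.128 FPKM in CD34a6 and 0.286 FPKM in bulk. Pappa was thus highest where Igfbp4 and Igfbp5 were highest, and Stc2 where Igfbp4 and Igfbp5 were lowest. This did not hold for Igfbp2, at 29.1 FPKM in HFSC, 0.273 FPKM in CD34a6 and 3.40 FPKM in bulk. Pappa was higher in CD34a6 than in bulk, and Stc2 was higher in HFSC than in CD34a6 and in bulk (adjusted p = 0.000212 each in the authors' deposited table). Stc1, a related inhibitor gene, was at 0.0065 FPKM in HFSC, 1.099 FPKM in CD34a6 and 0.0630 FPKM in bulk, and was called for CD34a6 against bulk (adjusted p = 0.00174 in the authors' deposited table). Adam12, a metalloprotease that cuts IGFBP3 and IGFBP5, was at 16.6 FPKM in HFSC, listed at 0 in CD34a6 and at 0.0197 FPKM in bulk. Htra1, a serine protease with binding proteins among its substrates, was at 551 FPKM in HFSC, 9.54 FPKM in CD34a6 and 162 FPKM in bulk. Both protease genes were higher in HFSC than in CD34a6 (adjusted p = 0.000212 each in the authors' deposited table), while neither was called between HFSC and bulk (adjusted p = 0.0901 for Adam12 and 0.113 for Htra1 in the authors' deposited table). The Htra1 locus in the table covers 69 other genes. M6pr, the smaller mannose 6-phosphate receptor, which does not bind IGF2, was at 65.5 FPKM in HFSC, 32.2 FPKM in CD34a6 and 38.0 FPKM in bulk, and was called higher in HFSC than in CD34a6 (adjusted p = 0.000212 in the authors' deposited table) and than in bulk (adjusted p = 0.0253 in the authors' deposited table).

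Adam12 and Stc2 also differed in culture. Adam12 was at 12.2 FPKM in CD34+ and 5.97 FPKM in CD34neg cells (adjusted p = 0.0171 in the authors' deposited table), and at 27.2 FPKM with dorsomorphin and 11.7 FPKM with cyclopamine (adjusted p = 0.00479 in the authors' deposited table). Stc2 was at 35.0 FPKM with dorsomorphin and 18.7 FPKM with cyclopamine (adjusted p = 0.00479 in the authors' deposited table). In this list of 10 partners and regulators, 3 were higher and 1 lower of 5 tested for CD34a6 against bulk, beside 22.0% higher and 24.3% lower over all tested loci. For HFSC against bulk 2 were higher and 0 lower of 5 tested, beside 19% and 24.7% of all loci, and for HFSC against CD34a6 4 were higher and 2 lower of 7 tested, beside 25.2% and 29.0%. Between the culture fractions 1 was higher of 4 tested, beside 2.08% of all loci, and between the drugs 2 were higher of 4 tested, beside 1.26%.

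Among the 12 genes of the insulin receptor family and its adaptors, the related inhibitory adaptors Grb10 and Grb14 ran in opposite directions in both HFSC comparisons. Grb10 was at 10.2 FPKM in HFSC, 0.949 FPKM in CD34a6 and 0.173 FPKM in bulk. Grb14 was at 0.528 FPKM in HFSC, 17.3 FPKM in CD34a6 and 2.03 FPKM in bulk. Grb10 was higher and Grb14 lower in HFSC than in CD34a6 (adjusted p = 0.000212 each in the authors' deposited table), and likewise against bulk (adjusted p = 0.000212 for Grb10 and 0.00126 for Grb14 in the authors' deposited table). In CD34a6 against bulk both were higher (adjusted p = 0.00734 for Grb10 and 0.000212 for Grb14 in the authors' deposited table). Irs2, a docking protein of the activated receptor, was at 4.72 FPKM in HFSC, 6.98 FPKM in CD34a6 and 1.53 FPKM in bulk. It was also higher in the CD34+ fraction, at 5.79 FPKM against 2.55 FPKM in CD34neg cells (adjusted p = 0.0161 in the authors' deposited table). Irs2 was thus the adaptor called both among the 3 populations and between the sorted fractions. Gab1, another docking protein, was at 7.11 FPKM in HFSC, 12.7 FPKM in CD34a6 and 19.1 FPKM in bulk. Ide, which degrades insulin, was at 168 FPKM in HFSC, 37.5 FPKM in CD34a6 and 314 FPKM in bulk. In this list 5 were higher and 1 lower of 9 tested for CD34a6 against bulk, 3 higher and 3 lower of 9 for HFSC against bulk, and 3 higher and 4 lower of 9 for HFSC against CD34a6. In either direction 46.3%, 43.7% and 54.2% of all tested loci were called in these comparisons. Of 6 tested in culture, 1 was higher in CD34+ than in CD34neg cells, beside 2.08% of all loci, and 0 were called between the drugs.

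Of the genes for proteins that bind Igf2 mRNA, Igf2bp1 and Igf2bp2 were highest in HFSC, where Igf2 itself was at 0.368 FPKM. Igf2bp2 was at 30.5 FPKM in HFSC, 1.09 FPKM in CD34a6 and 0.243 FPKM in bulk, and Igf2bp1 at 5.50 FPKM in HFSC, 0.260 FPKM in CD34a6 and 0.00432 FPKM in bulk. Igf2bp2 was higher in HFSC than in either other population (adjusted p = 0.000212 each in the authors' deposited table), and Igf2bp1 was called against CD34a6 only (adjusted p = 0.000761, and 0.141 against bulk, in the authors' deposited table). Igf2bp3 was at 2.48 FPKM in HFSC, 1.70 FPKM in CD34a6 and 5.81 FPKM in bulk, so it was highest in bulk. In culture Igf2bp2 was at 3.49 FPKM in CD34+ and 2.49 FPKM in CD34neg cells, and at 6.84 FPKM with dorsomorphin and 5.61 FPKM with cyclopamine, with no call.

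Downstream of the receptor, 20 genes of the PI3K, AKT, FOXO and mTOR pathway were listed. Of 20 tested, 3 were higher and 1 lower for CD34a6 against bulk, 3 higher and 4 lower for HFSC against bulk, and 7 higher and 7 lower for HFSC against CD34a6. Eif4ebp1, a repressor of translation controlled by mTOR, was at 141 FPKM in HFSC, 9.26 FPKM in CD34a6 and 21.7 FPKM in bulk. Pik3r1, a regulatory subunit of PI3K, was at 16.5 FPKM in HFSC, 42.1 FPKM in CD34a6 and 13.3 FPKM in bulk. Eif4ebp1 was thus highest in HFSC and Pik3r1 in CD34a6. Of 19 tested in culture 1 was called in each comparison. Foxo1, a transcription factor held back by AKT, was at 11.8 FPKM in CD34+ and 6.28 FPKM in CD34neg cells (adjusted p = 0.0321 in the authors' deposited table). Eif4ebp1 was at 155 FPKM with dorsomorphin and 114 FPKM with cyclopamine (adjusted p = 0.0388 in the authors' deposited table). Over all 4 lists, 16 of 36 tested genes were called for CD34a6 against bulk (44.4%), 17 of 37 for HFSC against bulk (45.9%) and 29 of 39 for HFSC against CD34a6 (74.4%). Over all tested loci the calls in either direction came to 46.3%, 43.7% and 54.2% for these comparisons. For CD34a6 against bulk 80% of the 5 tested partners and regulators, 66.7% of the 9 adaptors and 20% of the 20 PI3K, AKT, FOXO and mTOR genes were called. In the same order of lists the shares were 40%, 66.7% and 35% for HFSC against bulk. They were 85.7%, 77.8% and 70% for HFSC against CD34a6. In culture 3 of 30 were called in each comparison, all higher in CD34+ or with dorsomorphin. Of all loci 2.08% and 1.26% were called higher in these comparisons, and 6.79% and 2.57% in either direction.

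**Figure D4:**
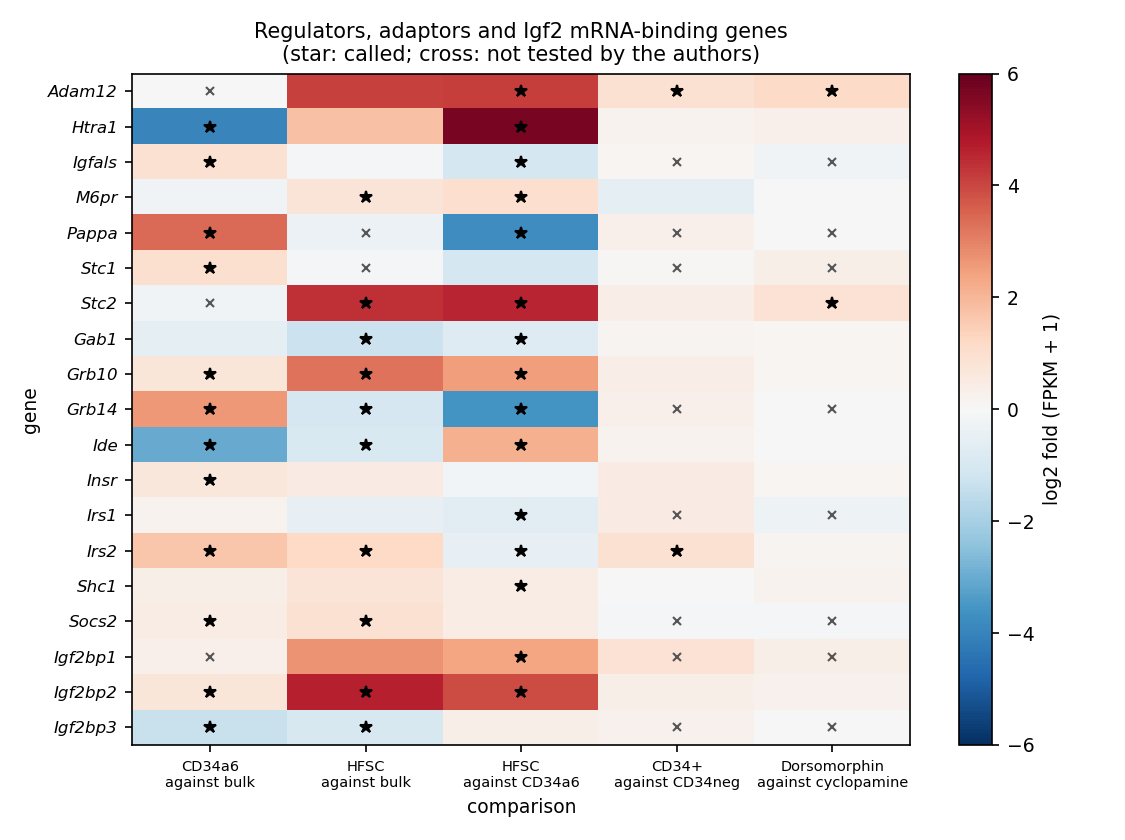
Log2 fold (FPKM + 1) of the listed regulators, adaptors and Igf2 mRNA-binding genes that the authors tested in at least 1 comparison, with a star where their adjusted p was under 0.05 and a cross where no test was made. Red is higher in the population named first. Pappa and Grb14 are red for CD34a6 against bulk and blue for HFSC against CD34a6, and Stc2, Grb10 and Igf2bp2 are red in both HFSC columns.

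The genes most like a member were taken as those with the nearest set of 4 log2 folds (FPKM + 1), by Euclidean distance among 6845 genes, each at 5 FPKM or more in at least 1 population of every table. The folds were CD34a6 and HFSC against bulk, CD34+ against CD34neg and dorsomorphin against cyclopamine. Those nearest to Igfbp4 were Smim1 (distance 0.84), the Wnt antagonist gene Sfrp1 (1.46), the R-spondin receptor gene Lgr4 (2.05), Il11ra1 (2.08) and the bulge transcription factor gene Nfatc1 (2.10). Sfrp1 was at 2.73 FPKM in HFSC, 482 FPKM in CD34a6 and 17.4 FPKM in bulk, the same order as Igfbp4. Those nearest to Igf2r were Gnpda1 (distance 0.18), Ppp1r18 (0.27), Lima1 (0.28), Snrk (0.29) and the P-cadherin gene Cdh3 (0.31). Lgr4 had a log2 fold of -0.61 for HFSC against bulk, where Igfbp4 had -2.52. None is named for Igf2, since at levels under 1 FPKM the pseudocount of 1 sets its folds. Igfbp4 was between 1.22 FPKM and 1.91 FPKM in the sorted fractions and drug-treated cultures, so the pseudocount also shrinks its folds there. The points behind each distance share libraries, and 2 of the folds share bulk.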

How the data were processed

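RNA sequencing of 21 mouse libraries in 7 groups was used as 3 tables of pairwise comparisons that the authors deposited, laid out like Cuffdiff output per the file headers. Expression was in FPKM and each log2 fold was the log2 ratio of a line's FPKM values, per the file headers; folds were turned so that the population named first is on top, and recomputed with a pseudocount of 1 FPKM, which understates low genes. The p-value and q-value columns are the authors' test and its adjustment as deposited (smallest p 5e-05), and the deposited test statistic, a score, was not used. The q-values equalled a Benjamini-Hochberg adjustment over all tested loci of each table (all 3 pairs at once in the 3-population table) to within 5.3e-07. Which of the groups a column named HFSC or CD34a6 holds was not settled by the labels, and 3C_HFSC in the fraction table was read as the CD34+ fraction.

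Per the submitters' processing notes, Cuffdiff, Cufflinks 2.2.1, StringTie 1.1.0, HISAT 0.1.6 and FastQC 0.11.3 were named for the 9 libraries of the 3-population table, although the labels' description names TopHat2. For the other 12 the submitters' processing notes, as the authors deposited them, name DESeq2 1.8.1, featureCounts (Subread 1.4.2), TopHat2 2.0.13, cutadapt 1.5 and FastQC 0.11.2, so the tool behind their p-values is uncertain. The build was GRCm38. Locus starts count from 0 in the tables and are printed from 1. Repeated lines of a locus were kept once. Loci were compared with GENCODE vM21, and promoters and gene names came from RefSeq tables.

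No gene was tested anew. A call means an adjusted p under 0.05 in the deposited tables, and depth was unknown, so no interval is given. The members, pathway lists and marker lists were chosen with earlier results of these data known. Pathway genes were named if called, at most 3 of the largest folds per list and comparison, and neighbours, Polr2b, Sfrp1, further values of a named gene and marker genes were named beside them. Of 46 listed pathway genes 45 were found under their own symbol. Alternatives were an adjusted p of 0.01, adjustment within a pair, rescaling, a minimum of 1 FPKM, other pseudocounts, and, added after the data were seen, loci free of other genes and a length trend. Python 3.11.15 with pandas 2.3.3, NumPy 2.4.6 and matplotlib 3.10.9 was used, and the code was tested on simulated data.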

Additional observations from a re-analysis of the deposited data

How the results depend on the processing

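No paired analysis was possible because the tables hold 1 value per population and none per replicate, and leaving out replicates was not run for the same reason. Counts of called members and pathway genes stayed within 1.5 times their value under the alternatives tried, with these exceptions. At an adjusted p under 0.01 the pathway genes called were 10 in place of 17 for HFSC against bulk and 0 in place of 3 for CD34+ against CD34neg. With members limited to loci that cover no other annotated gene, an alternative chosen after seeing the data, the members called with dorsomorphin against cyclopamine were 0 in place of 1, because Igfbp7 shares its locus with Polr2b. Scaling all populations to the same summed FPKM moved every log2 ratio by 1.17 for CD34a6 against bulk, 0.93 for HFSC against bulk, -0.25 for HFSC against CD34a6, 0.41 for CD34+ against CD34neg and 0.11 for dorsomorphin against cyclopamine, and no called member changed sign. With this scaling the pathway genes counted as called for HFSC against bulk were 14 in place of 17. Of 250 alternative member folds 12 changed sign, none of them a fold that was called. The size of the Igfbp5 fold of HFSC against CD34a6 depends on the pseudocount, at -6.79 with 1 FPKM, -9.59 with 0.1 FPKM and -10.9 with 0.01 FPKM on the log2 scale. Spread between libraries and counting error could not be examined.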

Other observations

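Airn, the antisense RNA gene inside Igf2r, shares the deposited Igf2r locus but has its own line. It was at 1.03 FPKM in HFSC, 2.59 FPKM in CD34a6 and 0.191 FPKM in bulk. In 3C cultures it was at 3.08 FPKM in CD34+ and 3.86 FPKM in CD34neg cells, and at 5.40 FPKM with dorsomorphin and 8.36 FPKM with cyclopamine. It was called for CD34a6 against bulk only (adjusted p = 0.0239 in the authors' deposited table), whereas Igf2r was called in all 3 comparisons of that table. Whether reads of the overlapping genes were assigned by strand was not given in the sources used here, so their values are uncertain where the genes overlap.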
